A study of Mus musculus with 4 samples.

Results

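Naive-type CD8 T cells of the mouse lung were selected on raw counts of unique molecular identifiers (UMIs, each standing for 1 captured RNA molecule) in single-cell RNA libraries. A cell barcode was chosen if it held at least 1 UMI of Cd8b1, the beta chain of the CD8 coreceptor, and at least 1 of the CD3 chain genes Cd3e, Cd3d or Cd3g. It also had to hold none of Cd4, none of Cd79a (B cell receptor), none of Mki67 (dividing cells) and none of Ccl5, a chemokine of effector and memory CD8 T cells. In all, 2470 of the 27544 cells kept met the rule. They were 908 of 8144 cells in WT and 545 of 5704 in KO after DPBS and 449 of 7994 in WT and 568 of 5702 in KO after papain. Because measured values chose these cells, the level of any of the rule's genes is a description and supports nothing here.

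CD8 T cells recognise peptides on MHC class I molecules. Naive cells carry the chemokine receptor Ccr7, which takes them into lymph nodes, and are kept quiet by transcription factors such as Lef1, Tcf7 and Klf2. After meeting antigen they switch on chemokines, granzymes and receptors such as Il2rb, the beta chain of the receptors for interleukin-2 and interleukin-15. The sort used here carried no label that separates cells in the lung's vessels from cells in its tissue.

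The study asked how IFT20, a protein of intraflagellar transport that also works in T cells without cilia, bears on allergic airway inflammation. All mice were C57BL/6 with floxed Ift20 alleles. WT mice (Ift20 f/f) had no Cre, and KO mice (Ift20 f/f CD4 cre) carried Cre under the Cd4 promoter, which is active in developing T cells including the precursors of CD8 T cells. Mice had 25 µg of papain, an allergenic plant protease, intranasally on 3 consecutive days and again on day 14, or DPBS, a buffered saline, and lung cells were taken on day 15. Live (7-AAD-negative) CD45.2-positive immune cells were sorted, and 1 library was made per genotype and treatment. The libraries are called DPBS WT and DPBS KO, then Papain WT and Papain KO. The mice were males 5 to 10 weeks of age, and the number of mice in a library was not given in the sources used here.

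The files held between 5863 and 8552 barcodes and between 53854420 and 75675956 UMIs per library. The naive-type CD8 cells had a median of 6486 UMIs per cell in WT and 7297 in KO after DPBS and 7375 in WT and 7940 in KO after papain, and their UMIs summed to 6561210, 4246459, 3629954 and 4902697. The level of a gene is its CPM, its UMIs per 1000000 UMIs summed over the cells of a library. Runs of 4 values without names stand for DPBS WT, DPBS KO, Papain WT, then Papain KO. Every interval below is an exact 95% interval for counting error only. With 1 library per group no test between conditions was run, no difference between conditions has a replicate check, and genotype or treatment cannot be told apart from the library.

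Summed over all naive-type cells, markers that the rule did not use matched the label. Cd8a, the alpha chain of CD8, stood at 320 CPM in WT and 250 in KO after DPBS and 302 in WT and 292 in KO after papain. Naive-type cells with 1 Cd8b1 UMI held less Cd8a, from 54.3 to 123 CPM over the libraries. Those with 2 or more Cd8b1 UMIs held 264 to 334 CPM. For Cd8a the match was therefore weaker in the cells just inside the rule. Cd8b1, which the rule required, stood at 853, 721, 765 and 787 CPM. Lef1, a transcription factor of naive T cells, stood at 418, 441, 425 and 407 CPM. With each cell thinned to 2000 UMIs, which left out the few shallower cells, 53.4%, 59.4%, 52.6% and 54.1% of them had a Lef1 UMI (90.6%, 93.0%, 91.5% and 93.3% without thinning). Among B cells, which should lack it, 1.6% to 2.5% had one. CD8 T cells with a Ccl5 UMI had one in 39.7%, 40.8%, 37.3% and 33.7% after thinning, so Lef1 was not particular to the naive-type cells.

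The cells were not free of RNA from other cells. Between 22 and 43 of them per library, 4.74% in WT and 4.04% in KO after DPBS and 6.46% in WT and 4.93% in KO after papain, held 10 or more UMIs over 15 markers of alveolar macrophages, monocytes and neutrophils. These few barcodes held 92.2%, 88.7%, 92.1% and 90.4% of all such UMIs in the naive-type cells, and their median depth was 19258, 17503, 17140 and 19320 UMIs against 6389, 7221, 7248 and 7866 in the others. The summed level of the 15 markers was 3598, 2431, 3594 and 2200 CPM over all naive-type cells and 322, 303, 329 and 239 CPM without these barcodes. Summed B cell markers went from 1029, 797, 1308 and 1820 CPM to 134, 92.7, 147 and 159 CPM. Summed natural killer markers went from 474, 340, 483 and 384 CPM to 44.3, 52.9, 28.3 and 28.1 CPM without these barcodes. Over all naive-type cells, gamma-delta T markers summed to 16.3 to 20.4 CPM and CD4 T markers to 76.8 to 116 CPM. Results are therefore given with all naive-type cells and, where they differ, without these barcodes, called myeloid-marker barcodes below.

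CD8 T cells without Ccl5 made up most of the CD8 T cells of every library. They were 81.6% of the CD8 gate in WT and 81.3% in KO after DPBS and 66.4% in WT and 75.8% in KO after papain, and the rest, 205, 125, 227 and 181 cells, carried a Ccl5 UMI. Of all cells kept, naive-type CD8 cells were 11.1% (10.5% to 11.9%) in WT and 9.55% (8.80% to 10.3%) in KO after DPBS and 5.62% (5.12% to 6.14%) in WT and 9.96% (9.20% to 10.8%) in KO after papain. Papain WT stood apart with the lowest share, and the other libraries lay between 9.55% and 11.1%. The share after papain was 0.504 times that after DPBS in WT (log2 ratio -0.99, -1.16 to -0.82) and 1.04 times in KO (log2 ratio 0.06, -0.11 to 0.23). KO against WT gave 1.77 times after papain (log2 ratio 0.83, 0.65 to 1.01) and 0.857 times after DPBS (-0.22, -0.38 to -0.07). Without the myeloid-marker barcodes the shares were 10.6%, 9.17%, 5.25% and 9.47%. A share of sorted cells depends on every other cell type in the tube, so fewer CD8 cells and more of the others cannot be told apart.

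**Figure D1:**
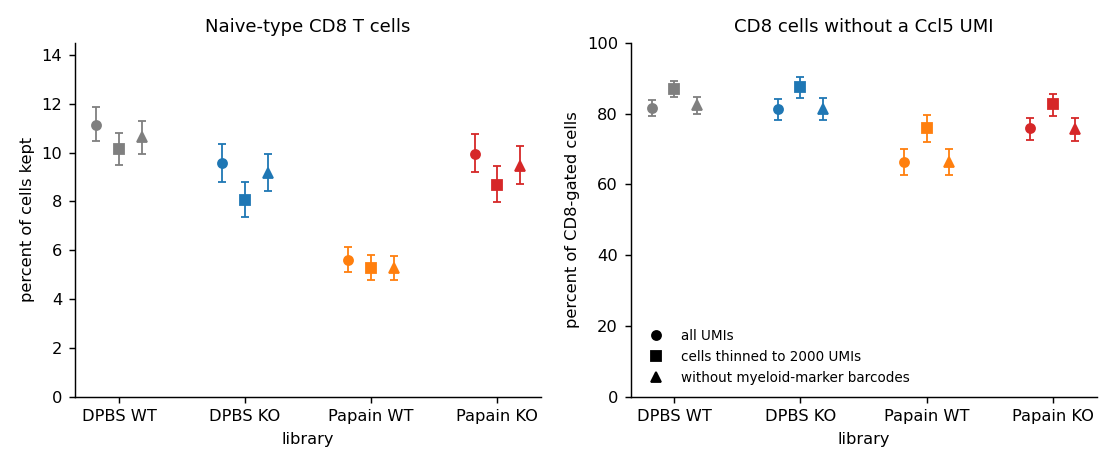
Naive-type CD8 T cells in each of the 4 libraries, as a percent of all cells kept (left) and as a percent of the CD8 gate (right). Points give the share and bars the exact 95% binomial interval for counting error, and Papain WT is lowest in both panels, at 5.62% and 66.4%.

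Ift20, the gene with the floxed alleles (ENSMUSG00000001105, GRCm38 chr11:78536361-78541737, plus strand), was lower in both KO libraries. It stood at 54.1 CPM in WT and 17.0 in KO after DPBS and 53.2 in WT and 18.6 in KO after papain, a log2 KO/WT of -1.67 after DPBS and -1.52 after papain. With the myeloid-marker barcodes left out the levels were 52.9, 14.3, 52.5 and 17.1 CPM (303, 55, 165 and 74 UMIs). The log2 ratios were then -1.88 (-2.33 to -1.47) and -1.62 (-2.04 to -1.22). The WT values were close to each other and both KO values lay far below them, yet neither KO library reached 0. The floxed exons lie near the 5′ end of the gene while the reads come from the 3′ end, so the deletion itself was not counted here.

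Ift20 was also lower in the other T cells of the KO libraries, while in B cells, in which CD4-cre is not active, the ratios lay nearer 0. Without myeloid-marker barcodes, Ift20 in CD4 T cells chosen by a mirror gate stood at 56.1, 22.4, 53.6 and 17.4 CPM, a log2 KO/WT of -1.33 and -1.62. In Ccl5-positive CD8 T cells it stood at 55.2, 18, 52.7 and 19.5 CPM, a log2 KO/WT of -1.61 and -1.43. In B cells it stood at 45.7, 34.8, 38.9 and 41.4 CPM, a log2 KO/WT of -0.39 and 0.09. Whether the naive-type CD8 cells differed from the other T cells in this ratio was not tested.

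**Figure D2:**
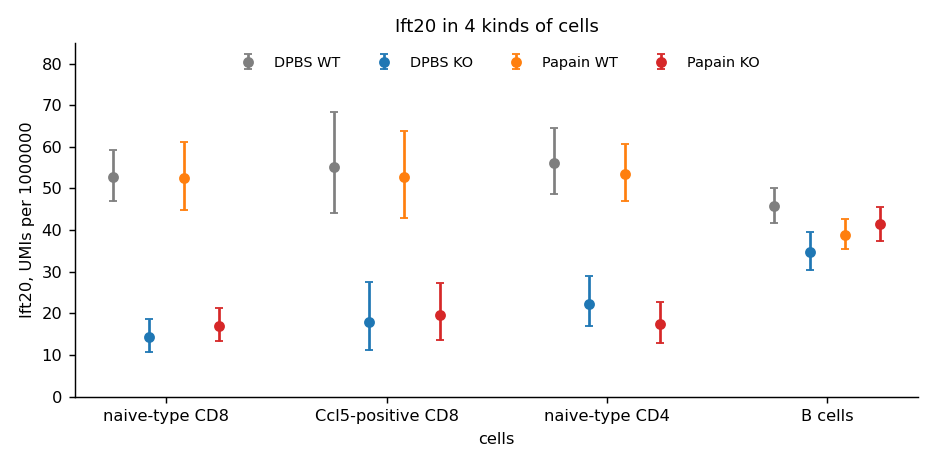
Ift20 level in CPM (UMIs per 1000000) in naive-type CD8, Ccl5-positive CD8, CD4 T and B cells of the 4 libraries, without myeloid-marker barcodes, with exact 95% Poisson intervals for counting error. In naive-type CD8 cells the WT libraries sit at 52.9 and 52.5 and the KO libraries at 14.3 and 17.1, while the B cell values overlap more, from 34.8 to 45.7.

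To describe what sets naive-type CD8 cells apart from their closest relative, they were compared with CD4 T cells chosen by the mirror of the same gate (Cd4 at least 1, no Cd8a, Cd8b1 or Foxp3), both kinds limited further by a filter on naive markers. UMIs were summed per library and cell type, 870, 535, 436 and 555 CD8 cells against 609, 405, 619 and 422 CD4 cells, and tested with edgeR's quasi-likelihood test with library as a block and Benjamini-Hochberg adjustment. The 4 libraries serve as replicates, and the block takes up differences between libraries that both cell types share. The spread therefore includes how the CD8 to CD4 difference itself varies between conditions. The CD4 cells were shallower, with medians of 5505 to 6578 UMIs against 6517 to 7977 in the CD8 cells, and the part of depth was not tested. The genes of either gate were left out of the test. Of 9851 genes, 1519 (15.4%) passed at a false discovery rate of 0.05, with 729 higher and 790 lower in CD8 cells. Without the filter on naive markers 1513 passed, 739 higher and 774 lower. With the myeloid-marker barcodes of both cell types left out 2168 passed (1101 higher), without the library block 703, without the DPBS WT library 942 and with DESeq2 649. The 20 genes with the largest differences among called genes of at least 20 CPM, 10 each way, kept their direction and call in each of the alternatives run.

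The genes with the largest differences at that level included genes of cytotoxic granules, homing and cytokine reception. Nkg7, a membrane protein of cytotoxic granules (GRCm38 chr7:43437073-43438249), stood at 378, 281, 381 and 338 CPM in CD8 cells and 4.9, 1.5, 13.2 and 5.5 CPM in CD4 cells of the 4 libraries in the order above. Its log2 difference was 5.77 (SE 0.18, adjusted p = 3.32e-10). Ccr9, a chemokine receptor for the gut and the thymus, stood at 74.2, 66.5, 76.7 and 60.5 CPM against 3.1, 2.6, 2.1 and 1.7 CPM (log2 4.93, SE 0.13, adjusted p = 3.20e-11). Itgae, the alpha chain of the integrin CD103 that binds E-cadherin, stood at 63.6, 52.8, 56.1 and 50.8 CPM against 5.2, 0.7, 1.2 and no UMI (log2 4.90, SE 0.28, adjusted p = 6.32e-08). No library had a CD4 value of any of these genes near its CD8 value.

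Ly6c2, a surface protein of memory and some naive CD8 T cells, stood at 243, 141, 236 and 168 CPM in CD8 cells and 14.8, 17.2, 22.9 and 3.8 CPM in CD4 cells (log2 3.82, SE 0.18, adjusted p = 1.03e-08). Its near-copy Ly6c1 showed the reverse, 6.8, 6.7, 6.2 and 6.8 CPM in CD8 against 129, 114, 109 and 143 CPM in CD4 cells (log2 -4.15, SE 0.09, adjusted p = 6.20e-12). How reads shared by these neighbouring copies on chromosome 15 were assigned was not given in the sources used here, so their separate levels are uncertain. Il2rb was higher in CD8 cells at 83.7, 101, 141 and 87.5 CPM against 10.9, 14.6, 28.0 and 11.7 CPM (log2 2.74, SE 0.10, adjusted p = 1.24e-09). Klrd1 (CD94), a partner chain of inhibitory and activating receptors, was higher by a log2 difference of 2.88. Bend4, Lcn4, Racgap1 and Fam241a completed the 10 largest differences upward among called genes with a mean of at least 20 CPM, with log2 differences of 4.40, 4.20, 3.41 and 3.1. Under the same limit the lower side was led, after Ly6c1, by the sialyltransferase gene St8sia6 (-3.68), Pdlim4 (-3.55), the costimulatory receptor Tnfrsf4 (OX40, -2.51) and Ly6a (Sca-1, -2.23). The CD8 and the CD4 values of these 20 genes did not overlap over the 4 libraries. The genes were picked as the largest called differences in these same values, so this largely follows from the choice. The share of all genes without overlap is not given here, and 15.4% of genes were called.

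**Figure D3:**
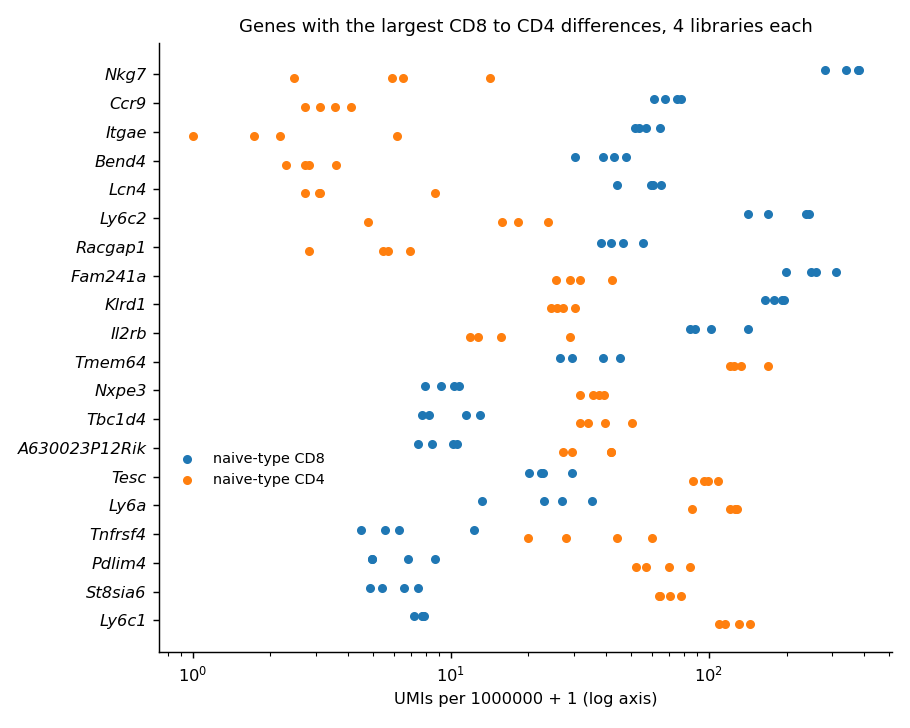
Levels of the 10 genes most raised and the 10 most lowered in naive-type CD8 against CD4 T cells among called genes with a mean of at least 20 CPM, in CPM plus 1 on a log axis, with 1 point for each cell type in each of the 4 libraries. The genes were picked for the size of this difference, and Nkg7 lies from 281 to 381 in CD8 cells and from 1.5 to 13.2 in CD4 cells.

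By function, the memory and effector genes leaned to CD8 cells. Of 24 tested, 12 were higher and 4 lower, beside 7.4% higher and 8.02% lower over all genes tested. Their median log2 difference was 1.37 against -0.02 over all genes. The higher ones included Eomes, a transcription factor of memory CD8 cells (3.12, adjusted p = 8.42e-07), Ctsw, a protease of cytotoxic cells (2.61), and Cxcr3, a chemokine receptor of effector cells (1.44). The lower ones were Fasl, S100a4, Ly6a and Itgb1. Naive and quiescence genes leaned the other way, with 1 of 18 higher (Dapl1, 0.59) and 11 lower (median -0.25). Among the lower ones were Igfbp4 (-1.31), the egress receptor S1pr1 (-0.41) and Tcf7 (-0.27). Lef1 differed by -0.13 and did not pass (adjusted p = 0.080).

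The other lists are read beside the same 7.4% higher and 8.02% lower. Of 18 T cell receptor and coreceptor genes, 3 were higher and 9 lower in CD8 cells, the latter including the inhibitory receptor Cd5 (-0.83) and the costimulator Cd28 (-0.62). Of 9 MHC class I genes, 4 were higher and none lower (B2m, 0.23, and Tapbp, Psmb8 and Nlrc5). Of 22 immediate early and heat shock genes, 1 was higher and 10 lower. None of 11 intraflagellar transport genes and partners passed in either direction, and Ift20 differed by 0.05 (adjusted p = 0.81). In the remaining lists the counts higher and lower were 5 and 2 of 13 for homing and egress, 2 and 6 of 21 for cytokine receptors and signalling, and 3 and 6 of 19 for interferon-stimulated genes. They were 1 and 2 of 18 for PI3K, AKT and mTOR, 2 and 1 of 9 for glycolysis and TCA genes, and none and 3 of 11 for survival. With so few genes to a list, counts such as the 3 of 18 for PI3K, AKT and mTOR lie near the share over all genes.

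Promoters are shown for Nkg7 and Ly6c2, among the most raised genes of at least 20 CPM, and for Ly6c1, the most lowered of them. Nkg7 and Ly6c2 were the only matched ones of the 10 most raised genes that held the letters marked below. Ly6c2 and Ly6c1 had 2 promoters listed each, and a window with the letters was taken where any held them. Each is 250 bases up to the base before a transcription start in RefSeq on GRCm38.p6, and capitals mark the core letters that Runx factors bind, read as TGTGGT on one strand and ACCACA on the other. Runx3 is known as the factor that helps silence Cd4 in CD8 T cells.
Nkg7 promoter: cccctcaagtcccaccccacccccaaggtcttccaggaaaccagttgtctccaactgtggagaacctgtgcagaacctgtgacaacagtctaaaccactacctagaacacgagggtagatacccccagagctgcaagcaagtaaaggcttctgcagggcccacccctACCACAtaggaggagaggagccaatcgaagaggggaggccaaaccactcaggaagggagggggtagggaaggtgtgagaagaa
Ly6c2 promoter: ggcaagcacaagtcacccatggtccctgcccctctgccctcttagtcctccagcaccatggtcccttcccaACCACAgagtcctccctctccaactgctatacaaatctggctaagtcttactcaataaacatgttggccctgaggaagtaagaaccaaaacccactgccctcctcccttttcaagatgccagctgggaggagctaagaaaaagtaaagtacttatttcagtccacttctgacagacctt
Ly6c1 promoter: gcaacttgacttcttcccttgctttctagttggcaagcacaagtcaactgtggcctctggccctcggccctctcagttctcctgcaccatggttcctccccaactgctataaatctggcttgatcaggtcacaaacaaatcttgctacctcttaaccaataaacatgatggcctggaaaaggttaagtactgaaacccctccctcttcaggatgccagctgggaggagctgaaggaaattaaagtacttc
These are chr7:43436888-43437137 on the plus strand for Nkg7, chr15:75111972-75112221 on the minus strand for Ly6c2 and chr15:75048838-75049087 on the minus strand for Ly6c1. The letters begin 83 bases before the start of Nkg7 and 179 before that of Ly6c2, and they were not found in this window of Ly6c1. They are common. At least 1 listed promoter held them in 15.9% of all 27025 genes with a promoter and in 13% of the matched genes tested (1008 of 7738). They were in 17.6% of the genes called higher (97 of 552 matched) and 13.7% of those called lower (85 of 622). Of the 10 most raised genes 7 were matched and 2 held the letters, and of the 10 most lowered 8 were matched and none did. A match is letters in a window and no evidence of binding.

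Set beside the Ccl5-positive CD8 cells of the same libraries, 12 of 20 naive and quiescence genes were higher in the naive-type cells in all 4 libraries and 1 (Nsg2) was lower in all 4, with the rest mixed. Of 30 memory and effector genes, 26 were lower in all 4 and none was higher in all 4. Because Ccl5 defined the split, this is a description. Lef1 was 418, 441, 425 and 407 CPM in naive-type and 293, 265, 248 and 255 CPM in Ccl5-positive cells. Dapl1 was 295, 222, 195 and 228 against 121, 128, 62.1 and 119 CPM. Nkg7, by contrast, was 373, 278, 377 and 336 against 729, 742, 743 and 792 CPM, and Il2rb 82.5, 100, 141 and 86.5 against 262, 321, 404 and 292 CPM. In every library the Nkg7 level of the naive-type cells lay between those of the CD4 and the Ccl5-positive cells. Itgae and Ccr9 had the opposite pattern to the effector genes, with 51.0 to 62.2 CPM of Itgae in naive-type and 11.2 to 16.4 CPM in Ccl5-positive cells, and 60.6 to 76.9 against 8.57 to 25.8 CPM of Ccr9. Cells just inside the rule, with 1 Cd8b1 UMI, numbered 70, 53, 41 and 50, and held 145, 84.6, 76.0 and 53.3 CPM of Nkg7. The other naive-type cells, with 2 or more Cd8b1 UMIs, held 390, 296, 402 and 357 CPM of Nkg7. Cells just outside at the other limit, with 1 Ccl5 UMI, numbered 55, 31, 42 and 52 and held 371, 251, 367 and 393 CPM, near those values. Those with 2 or more Ccl5 UMIs held 852, 916, 829 and 924 CPM.

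UMIs of the genes that set CD8 from CD4 cells were not detected in every naive-type cell, which at this depth does not show that a cell lacked the RNA. With cells thinned to 2000 UMIs, Nkg7 had a UMI in 47.2% in DPBS WT and 36.5% in DPBS KO, and in 46.3% and 43.3% in the papain libraries, against 0.5% to 1.2% of B cells and 62% to 71% of Ccl5-positive CD8 cells. Without thinning the Nkg7 share of the naive-type cells was 69.5% to 78.5%. Itgae had a UMI in 11.9%, 11.3%, 12.1% and 8.1% of the naive-type cells and Ccr9 in 15.7%, 11.4%, 11.6% and 11.0% (28.1% to 28.9% and 26.2% to 31.4% without thinning). Ly6c2 had one in 21.3%, 16.8%, 21.5% and 17.8%, against 52% to 63% of Ccl5-positive cells (28.6% to 37.4% of naive-type cells without thinning). Among naive genes, Dapl1 had a UMI in 33.4%, 26.8%, 22.4% and 24.2% and the receptor for interleukin-7, Il7r, in 50.7%, 56.5%, 56.6% and 56.7%, against 0.9% to 1.9% of B cells for Il7r. Of Ccl5-positive CD8 cells 10.7% to 18.2% had a Dapl1 UMI. Il7r was found in 50.5%, 50.4%, 58.7% and 60.8% of them, so it did not set the naive-type cells apart. Unthinned shares of the naive-type cells were 41.9% to 52.1% for Dapl1 and 81.1% to 89.1% for Il7r. Ccr7, which B cells also use, had a UMI in 56.8%, 73.6%, 62.6% and 63.8% of the naive-type cells, with 83.8% to 94.7% before thinning. After thinning it was found in 53.8% to 68.9% of B cells and 43.1% to 58.4% of Ccl5-positive CD8 cells.

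Among themselves the naive-type cells differed in Il2rb, which was detected in a subset. Without thinning, 33.5%, 41.8%, 47.9% and 37.9% of all naive-type cells had an Il2rb UMI, and after thinning 13.3%, 15.5%, 19.7% and 12.9% did, against 0.4% to 0.9% of thinned B cells. Papain WT was highest on both scales. Leaving out the myeloid-marker barcodes, cells with an Il2rb UMI numbered 288, 219, 201 and 200. Their median depth of 7056, 8054, 8410 and 8756 UMIs was above the 6129, 6669, 6137 and 7416 of the others, and the part of depth in this split was not tested.

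The Il2rb-positive naive-type cells held more RNA of other memory-type genes relative to all UMIs. Ly6c2 was higher in them by a log2 ratio of 1.07, 1.32, 2.04 and 1.05, and Cxcr3 by 2.30, 1.20, 2.24 and 2.13. Eomes was higher by 0.83, 1.08, 1.49 and 0.51, and the adhesion receptor Cd44 by 0.76, 0.76, 0.98 and 1.26. Ccr9 was lower by log2 ratios of -0.89, -0.44, -1.48 and -0.90, Itgae by -0.42, -0.29, -0.68 and -0.52, and Lef1 by -0.16, -0.21, -0.23 and -0.23. The direction was shared by the 4 libraries for each of these genes. Cells of 1 library are not replicates, and no test was run on this split.

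The comparison of KO with WT asks what else differs in naive-type CD8 cells when Ift20 is targeted. Of 4795 genes with a mean level of at least 20 CPM, 23 (0.48%) differed 2-fold or more after DPBS (12 higher and 11 lower in KO) and 19 (0.396%) after papain (3 higher and 16 lower). Without the myeloid-marker barcodes, 4536 genes passed the same filter, and 15 and 9 of them did. Over all naive-type cells, 5 genes were lower by 2-fold or more in KO after both treatments, namely Ift20 and the myeloid genes G0s2, S100a8, S100a9 and Lyz1. Neutrophil markers summed to 341 CPM in WT and 78.4 in KO after DPBS and 693 in WT and 250 in KO after papain, and to 11.7, 5.47, 24.8 and 16.4 CPM without the myeloid-marker barcodes. Without those barcodes Ift20 was alone past 2-fold in both pairs. Both pairs share no library, and 56.6% of the genes had the same sign in both (54.8% without the myeloid-marker barcodes). The median log2 ratio of the 4795 genes was below 0 in both pairs, at -0.03 after DPBS and -0.07 after papain. A lean to the same side by itself raises the share of like signs, and the share to expect from it was not worked out.

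**Figure D4:**
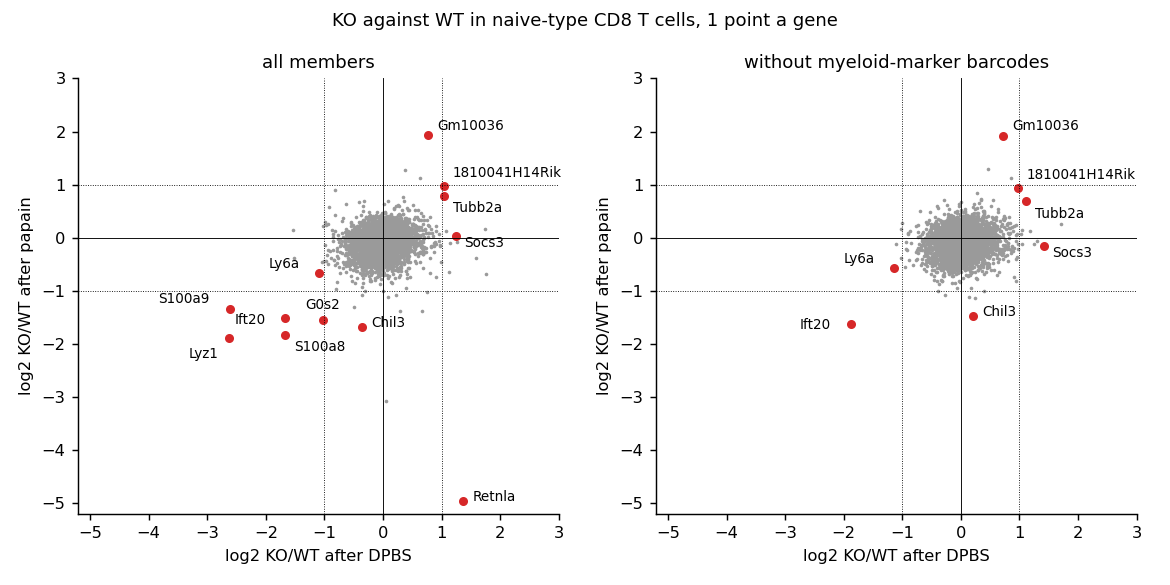
Log2 KO/WT after DPBS (x axis) and after papain (y axis) for genes of naive-type CD8 T cells, with all cells (left) and without myeloid-marker barcodes (right), 1 point for each gene. In the right panel Ift20 sits alone in the lower left at -1.88 and -1.62, while S100a8, S100a9, G0s2 and Lyz1 lie near it in the left panel.

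The other genes that were highest in KO after both treatments differed less. Values here leave out the myeloid-marker barcodes. Tubb2a, a beta-tubulin, stood at 67.9 CPM in WT and 146 in KO after DPBS and 66.5 in WT and 107 in KO after papain. Its log2 KO/WT was 1.11 (0.92 to 1.30) after DPBS and 0.68 (0.44 to 0.93) after papain. In CD4 T cells Tubb2a stood at 115, 225, 145 and 184 CPM, and in B cells its log2 KO/WT was 0.95 and -0.23. Both KO values of the naive-type cells lay above both WT values, and the B cells, which keep Ift20, had a ratio of like size after DPBS.

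The antisense gene 1810041H14Rik (GRCm38 chr14:121876725-121879409) stood at 15.5, 30.5, 16.2 and 30.9 CPM, a log2 KO/WT of 0.97 and 0.93. In CD4 T cells its ratios were 0.87 and 0.56 and in B cells -0.80 and 0.30. Amd1, an enzyme of polyamine synthesis, stood at 24.8, 38.3, 22.6 and 33.0 CPM (0.63 and 0.55), Plaur, the urokinase receptor, at 27.4, 39.8, 21.0 and 34.1 CPM (0.54 and 0.70), and Abt1 at 27.6, 42.7, 28.6 and 40.1 CPM (0.63 and 0.49). B9d2, a protein of the base of cilia that ranked among the 8 highest with all naive-type cells, stood at 18.1, 26.4, 16.8 and 24.3 CPM there (0.54 and 0.53). The antisense gene Gm17056 (0.86 and 1.13), Gm8797 (0.52 and 0.60) and the processed pseudogene Gm10036 (0.71 and 1.92) were also among the highest, and the counts of such genes are uncertain, since reads of an overlapping or near-identical gene can fall to them. Gm10036 and Gm8797 were higher in B cells of the KO libraries too, by log2 ratios of 0.90 and 2.03, and of 0.27 and 0.51.

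The lowest in KO after both treatments, apart from Ift20, were genes of modest level. Ly6a, an interferon-inducible surface protein with near-copies, stood at 28.6 CPM in WT and 13 in KO after DPBS and 34.0 in WT and 22.8 in KO after papain, a log2 KO/WT of -1.14 and -0.58. In B cells its ratios were -0.43 and -0.81. Tmem173, the innate sensor STING, stood at 26.2, 13.5, 25.4 and 17.3 CPM (-0.95 and -0.56), with -0.88 and -0.14 in B cells. Nlrc5, the transactivator of MHC class I genes, stood at 46.8, 29.2, 42.3 and 29.7 CPM (-0.68 and -0.51), with -0.14 and -0.73 in B cells. Treml2, a receptor of the TREM family, stood at 42.8, 28.4, 52.5 and 34.1 CPM (-0.59 and -0.62), while in B cells its ratios were 0.39 and -0.01. Gfpt1, the first enzyme of the hexosamine pathway, had ratios of -0.81 and -0.51, 1600014C10Rik of -0.64 and -0.60, and Art2b of -0.58 and -0.53.

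Lists of genes showed small medians. Interferon-stimulated genes were lower in KO after DPBS, with 17 of 19 measured genes below 0 and a median log2 ratio of -0.37 against -0.05 over 8579 genes. After papain, 8 of 19 were above 0, with a median of -0.06 against -0.09 over all genes. Of the 8579 genes, 3648 were above 0 after DPBS and 3066 after papain. Ifit3, an antiviral protein, stood at 18.6 CPM in WT and 6.12 in KO after DPBS and 9.37 in WT and 11.4 in KO after papain, and Irf7, a regulator of interferon genes, at 51.8, 35.3, 42.1 and 44.3 CPM. Ifi27l2a stood at 429, 284, 333 and 318 CPM. DPBS WT was highest for each of these genes, and the other 3 libraries lay below it. Memory and effector genes had medians of -0.23 after DPBS (7 of 22 above 0) and -0.40 after papain (3 of 22 above 0), or -0.11 and -0.31 without the myeloid-marker barcodes. The naive and quiescence genes had medians of 0.14 and -0.01, and genes of PI3K, AKT and mTOR of -0.02 and -0.07. The glycolysis and TCA genes had medians of -0.04 and 0.03, and intraflagellar transport genes and partners, Ift20 included, of -0.28 and -0.05. They were -0.13 and 0.02 for T cell receptor and coreceptor genes, -0.15 and 0.01 for homing, 0.03 and -0.08 for survival, -0.23 and -0.06 for MHC class I and 0.01 and 0.07 for 82 ribosomal protein genes.

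Ccr7 and several cytokine signalling genes were low in DPBS WT alone. Socs3, an inhibitor of cytokine receptors, stood at 59.3 CPM in WT and 140 in KO after DPBS and 125 in WT and 128 in KO after papain. Its log2 KO/WT was 1.24 (1.05 to 1.43) after DPBS and 0.04 (-0.14 to 0.21) after papain. Ifngr1, a chain of the interferon gamma receptor, stood at 256, 475, 397 and 373 CPM, Ccr7 at 505, 843, 649 and 691 CPM, and the AP-1 gene Junb at 791, 1347, 1228 and 1454 CPM. B cells of the same libraries, without myeloid-marker barcodes, held 674, 1003, 742 and 791 CPM of Ccr7 and 41.3, 46.8, 126 and 83.6 CPM of Socs3. The cytokine receptor list as a whole had a median log2 KO/WT of 0.25 after DPBS (15 of 20 above 0) and -0.13 after papain (6 of 20). Over all 8579 genes the medians were -0.05 (3648 above 0) and -0.09 (3066 above 0), so the value after papain lay near that of all genes.

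Papain against DPBS gave 34 genes (0.709% of 4795) past 2-fold in WT, 26 of them higher, and 28 (0.584%) in KO, 21 of them higher. With the myeloid-marker barcodes left out the counts were 16 and 4 of 4536. With all naive-type cells, 6 genes were higher past 2-fold in both genotypes, namely Il1r2, G0s2, Il1b, Pltp, S100a9 and Tppp3, and 1 was lower, Lyz1. Without those barcodes Hspa1b was alone. The 2 pairs share no library, and 48.8% of the genes had the same sign in them (46.4% without the myeloid-marker barcodes).

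Hspa1b, an inducible heat shock protein 70, stood at 303 CPM in WT and 250 in KO after DPBS and 695 in WT and 668 in KO after papain without the myeloid-marker barcodes. Its log2 papain/DPBS was 1.20 (1.10 to 1.29) in WT and 1.42 (1.31 to 1.53) in KO. Its near-copy Hspa1a stood at 895, 943, 1581 and 1474 CPM (0.82 and 0.64), and the split of reads between the copies is uncertain. Both papain libraries were above both DPBS libraries for each copy. In B cells the ratios of Hspa1b were 0.45 and 1.00 and those of Hspa1a -0.11 and 0.24, and in CD4 T cells those of Hspa1b were 0.98 and 1.74. Irf2bp2, a transcriptional corepressor, stood at 61.4, 67.4, 109 and 102 CPM (0.83 and 0.60), and the AP-1 gene Fosb at 62.6, 53.1, 91.6 and 89.2 CPM (0.55 and 0.75). Id3, an inhibitor of E proteins, stood at 63.3, 52.9, 89.7 and 94.3 CPM (0.50 and 0.83), and Hopx, a homeodomain-only protein, at 29.3, 19.5, 46.4 and 46.3 CPM (0.66 and 1.25).

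Genes of the immediate early and heat shock list were higher after papain as a group. In all naive-type cells 20 of 22 were above 0 in WT (median 0.30 against 0.04 over 8579 genes) and 21 of 22 in KO (0.31 against 0.00). Over all 8579 genes, 4926 were above 0 in WT and 4349 in KO. Without the myeloid-marker barcodes the medians were 0.34 and 0.24. Memory and effector genes were above 0 in 17 of 22 in WT (median 0.26) and 14 of 22 in KO (0.21), or 0.25 and 0.08 as medians without the myeloid-marker barcodes. Interferon-stimulated genes were above 0 in 7 of 19 in WT (-0.09) and 19 of 19 in KO (0.23). Naive and quiescence genes had medians of 0.08 in WT and -0.07 in KO. KO against WT after DPBS and papain against DPBS in WT both use the DPBS WT library, so their values are not independent of each other. The medians in WT and KO were -0.10 and 0.02 for T cell receptor and coreceptor genes, 0.09 and 0.06 for homing, 0.26 and -0.16 for cytokine receptors, 0.17 and 0.09 for PI3K, AKT and mTOR, and -0.10 and 0.01 for glycolysis and TCA. They were -0.03 and 0.09 for intraflagellar transport, 0.23 and 0.02 for survival, -0.04 and 0.07 for MHC class I and -0.06 and -0.02 for ribosomal proteins.

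**Figure D5:**
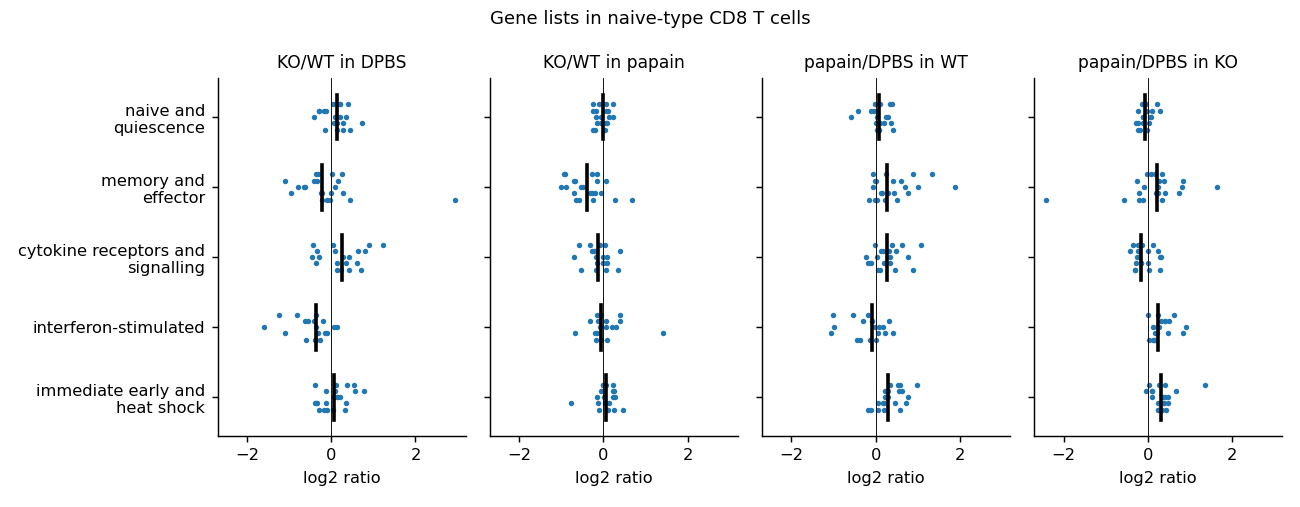
Log2 ratios of the genes of 5 lists in naive-type CD8 T cells for the 4 comparisons, 1 panel for each, with 1 point for each gene and a bar at the list's median. The immediate early and heat shock genes sit mostly right of 0 in both papain against DPBS panels (medians 0.30 and 0.31), and the interferon-stimulated genes mostly left of 0 in KO against WT after DPBS (median -0.37).

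With all naive-type cells the 8 genes lowest after papain in both genotypes were Lyz1, Gm10036, Krt19, Plet1, Ltc4s, Lpl, Hmox1 and Axl, several of them known from macrophages. Alveolar macrophage markers summed to 2847, 2064, 2482 and 1389 CPM (213, 210, 198 and 128 CPM without the myeloid-marker barcodes). Without those barcodes Lyz2, a lysozyme of myeloid cells, still stood at 124 CPM in WT and 111 in KO after DPBS and 71.9 in WT and 71.9 in KO after papain. In thinned cells, 28.6%, 26.0%, 16.6% and 18% of the naive-type cells had a Lyz2 UMI, against 27% to 37% of B cells (45.4% to 57.6% of naive-type cells without thinning). Of these B cells 13.5% to 17.4% were myeloid-marker barcodes, against 4.04% to 6.46% of the naive-type cells. The B cell share is therefore no clean background level, and a share below it does not show background. The part of myeloid RNA in these values beyond the barcodes left out was not tested.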

How the data were processed

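Per the labels, lung CD45.2-positive cells were profiled with the 10x Genomics 3′ v3 chemistry, 1 library per group. The authors deposited raw UMI counts per gene and cell barcode (31053 genes). The submitters' processing notes name Cell Ranger and mm10, and the file headers give software version 3.1.0. The annotation, the cell-calling rule and any doublet removal were not given in the sources used here.

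Barcodes with more than 200 genes and under 15% mitochondrial UMIs were kept. Doublets, scored with Scrublet (scanpy 1.11.5) and called up to 0.8% per 1000 barcodes, were left in and left out as an alternative. Scrublet's own threshold marked 0.0175% of Papain KO and had not worked there. Any pair of libraries shared 7 to 16 barcode sequences. Summed UMI counts were scaled to CPM, with exact Poisson, binomial and conditional ratio intervals (scipy 1.17.1, Python 3.11.15). A count of 0 allows up to 3 UMIs. CD8 and CD4 sums were tested with edgeR 4.0.16 (R 4.3.3, TMM, filterByExpr, Benjamini-Hochberg), with DESeq2 1.42.0 as an alternative. Other alternatives were the gates, filters, size factors, block and single libraries. Positions are from GENCODE M21 on GRCm38.

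The cells, the gene lists and the markers were chosen with earlier results of these data known. Genes were named if they were list members or among the 8 highest or lowest in both KO/WT pairs or both papain/DPBS pairs (mean CPM at least 20, ranked by the smaller log2 ratio), or the 10 largest CD8 against CD4 differences each way among called genes with a mean of at least 20 CPM. Socs3, Ifngr1, Ccr7 and Junb are list members shown together after their values were seen. Leaving out barcodes with 10 or more UMIs over 15 myeloid markers was added after seeing the data. The statistical steps were tested on simulated data. The CD8 and CD4 sums were limited to cells with a UMI of a naive marker, 1 of which is not reported here.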

Additional observations from a re-analysis of the deposited data

Results flagged for a closer look

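The share of naive-type CD8 T cells among the cells kept lay in opposite directions in the KO against WT pairs. After DPBS the log2 KO/WT of the share was -0.22 (-0.38 to -0.07), and after papain it was 0.83 (0.65 to 1.01). Without the myeloid-marker barcodes the values were -0.21 and 0.85, and with each cell thinned to 2000 UMIs before the gate they were -0.33 and 0.72. Each pair is 1 library against 1 library, and the difference between the pairs was not tested.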

How the results depend on the processing

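Of the alternatives to the values that answer a comparison, 151 left the value in place, 33 moved it and none reversed it. For counts of CD8 against CD4 genes the limit for left in place was wide. It took in 1057 higher without the filter on low counts and 520 without DPBS KO, against 729. It also took in 1067 lower without the myeloid-marker barcodes, against 790. With at least 2 Cd8b1 UMIs the shares of cells kept were, in the order of the report, 10.3%, 8.63%, 5.10% and 9.08%. With cells thinned before the gate the shares were 10.1% and 8.06% in WT and KO after DPBS and 8.68% in KO after papain, the shares of the CD8 gate without Ccl5 were 87.0%, 87.5%, 75.9% and 82.6%, and 12 genes (KO/WT in papain) and 15 genes (papain/DPBS in KO) were past 2-fold. Without the myeloid-marker barcodes 15, 9, 16 and 4 genes were past 2-fold for KO/WT in DPBS, KO/WT in papain, papain/DPBS in WT and papain/DPBS in KO, with a CPM filter of 10 there were 55, 40, 78 and 62, and with a filter of 50 there were 10, 5, 10 and 13. Such a count depends on the filter and on counting noise in low genes. For CD8 against CD4, 369 genes were higher and 334 lower without the library block, 1101 were higher without the myeloid-marker barcodes, and DESeq2 called 361 higher and 288 lower. Leaving out 1 library gave 474 to 827 higher and 468 to 832 lower. Without DPBS WT there were 474 and 468, and without DPBS KO 508 lower. The 20 named genes kept their direction and call in each of these fits. Among single genes 4 values reversed: without the myeloid-marker barcodes the log2 ratio of G0s2 was 0.15 for KO/WT in papain and -0.27 for papain/DPBS in WT, and with thinned cells the papain/DPBS ratio in WT was -0.66 for Tppp3 and 0.57 for Lyz1. Ift20 log2 KO/WT ranged from -1.88 to -1.62 after DPBS and from -1.66 to -1.43 after papain over its alternatives. The causes were not tested. TMM factors shifted the 4 ratios by 0.05, 0.09, -0.06 and -0.02.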

Other observations

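Slc15a2, a peptide transporter, stood at 7.01 CPM in WT and 20.5 in KO after DPBS and 2.75 in WT and 28.4 in KO after papain of the naive-type CD8 T cells (46, 87, 10 and 139 UMIs). It was below the filter of 20 CPM and was chosen after its values were seen. Without myeloid-marker barcodes its log2 KO/WT was 1.47 after DPBS and 3.47 after papain, and in B cells, which keep Ift20, it was 1.26 and 3.6. The processed pseudogene Gm10036 had log2 KO/WT values of 0.71 and 1.92 in naive-type CD8 cells, 0.77 and 2.40 in CD4 T cells and 0.90 and 2.03 in B cells.

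Gzma, a granzyme of cytotoxic cells, stood at 2.13 CPM in WT and 16.5 in KO after DPBS and 1.93 in WT and 3.06 in KO after papain of the naive-type CD8 cells (14, 70, 7 and 15 UMIs). In Ccl5-positive CD8 cells it stood at 148, 432, 52.7 and 113 CPM, with DPBS KO the highest in both kinds of cells. Ifng stood at 4.42, 2.83, 16.3 and 8.77 CPM in naive-type CD8 cells, from 29, 12, 59 and 43 UMIs. Both Papain libraries were above both DPBS libraries for Ifng.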
